A study of Arabidopsis thaliana with 10 samples.

Results

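The D-type cyclin genes of Arabidopsis thaliana form a family of 10, CYCD1;1 to CYCD7;1, among 27444 nuclear protein-coding genes listed by RefSeq. They were looked up by locus identifier in the peak lists of YFP-LIMYB chromatin, and every peak that the authors had assigned to one of them was kept, whatever its position. The whole family was selected from these lists with their folds known, that of the CYCD4;1 site being among the highest. The values below are therefore a description, and none was tested. Of the 10 genes, 3 had an assigned peak in line L1 and 4 in line L4, and both lines had one at CYCD2;1 and CYCD4;1. These counts were near the shares over all nuclear protein-coding genes, 25.7% in L1, 24.4% in L4 and 14.3% in both. The family held 13 peaks, 7 in L1 and 6 in L4.

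D-type cyclins are the regulatory subunits that let the cyclin-dependent kinase CDKA;1 start a new cell cycle. The complex phosphorylates the retinoblastoma protein RBR1, which frees E2F transcription factors to switch on genes of DNA replication. Because D-type cyclins respond to sucrose, cytokinin and auxin, they link the growth conditions of a plant to cell division, and single members serve particular divisions in roots, leaves and the stomatal lineage. LIMYB is a MYB-domain transcriptional repressor downstream of the receptor kinase NIK1, and the title of the study names the set of genes under its control as the question.

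The data were chromatin immunoprecipitations with an anti-GFP antibody from 3 lines, with 2 samples of L1 and 4 each of L3 and L4. The titles give 2 replicate numbers in each line, so in L3 and L4 each number stands on 2 samples, and whether these are separate cultures or repeat libraries is not given. All are labelled as LIMYB overexpression lines and carry a YFP-LIMYB transgene. Seedlings at most 12 days old, from half-strength MS plates with 1% sucrose, were crosslinked with formaldehyde. The promoter of the transgene, whether the lines are separate insertions and the meaning of the name LIMYB-32 in every title are not given in the labels. No input DNA, untransformed plant or other control is among the samples, so what the same sites give without the transgene was not tested. Each line had 1 peak list with no column for a sample, so no value has a replicate error, and read depth is unknown. L1 had 9604 nuclear peaks and L4 had 8952. The 12 peaks of L3 were all on plastid DNA, so none lay at a cyclin gene.

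Each peak is given with its pileup, the number of overlapping fragments at the summit, with its fold, the deposited ratio of that signal to an expected signal, and with its −log10 q. The expected signal is pileup divided by fold: a Poisson tail with that mean gave the deposited −log10 p to within 0.1 at 9598 of 9604 nuclear peaks in L1 and 8950 of 8952 in L4. Distances to a gene were measured between summit and 5′ end unless a peak edge is named, with genes placed as in the files. The files name no genome build, and positions are those of the files.

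The site upstream of CYCD4;1 (AT5G65420) had the highest −log10 q of the whole list in both lines. CYCD4;1 is a cyclin of root meristem and lateral root divisions. In L1 the peak ran from 26146646 to 26147025 on chromosome 5, with a pileup of 220 fragments, a fold of 32.54 and a −log10 q of 235.14. In L4 it ran from 26146619 to 26147027, with a pileup of 213, a fold of 34.8 and a −log10 q of 233.54. The whole L1 peak lay within the L4 peak, and the summits were 2 bp apart, against a median gap of 23 bp over the 4324 overlapping pairs of nuclear peaks.

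Among the nuclear peaks of each list, the next −log10 q was well below these values. It was 197.96 in L1, at a peak assigned to AT2G01023, and 188.72 in L4, at PERK8, a receptor-like kinase gene. By fold the CYCD4;1 site ranked 5 of 9604 in L1 and 28 of 8952 in L4, and by pileup it ranked 29 and 13. Its lower fold of both lines ranked 4 among the 4324 pairs. In L1 the median peak had a fold of 8.72 and a pileup of 19, and in L4 a fold of 11.65 and a pileup of 17. The expected signal at the site (L1 6.76, L4 6.12 fragments) was itself far above the list medians of 1.98 and 1.36. It ranked 231 of 9604 in L1 and 180 of 8952 in L4.

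**Figure D1:**
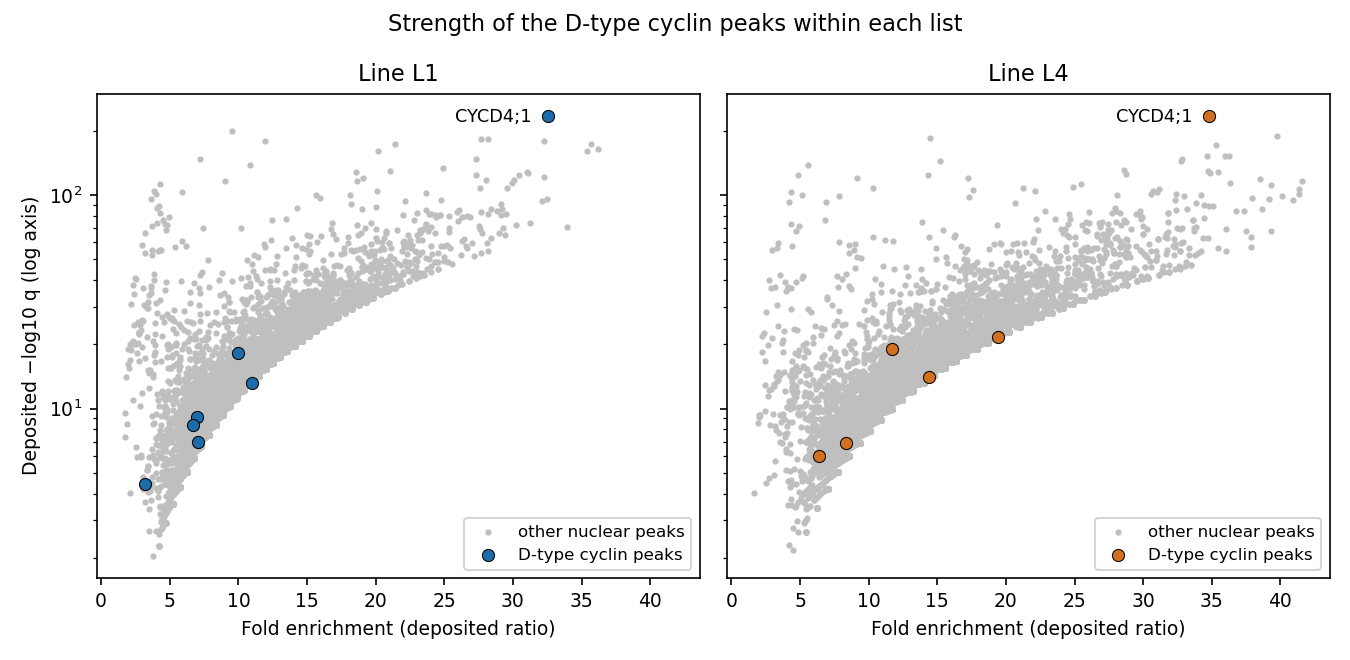
Fold enrichment (x axis, deposited ratio) and −log10 q (y axis, log scale) of every nuclear peak in L1 (left) and L4 (right), each point 1 peak, with D-type cyclin peaks in colour. The CYCD4;1 upstream peak is the topmost point of both panels, at 235.14 and 233.54, and the other cyclin peaks lie far lower, with the peak inside the same gene near the low end of the L1 folds at 3.19.

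The plot of fold against −log10 q shows how far this site stands from the other 11 cyclin peaks, none of which passed a −log10 q of 21.61. The site was not at the promoter: its summit lay 2842 bp upstream of the 5′ end in L1 and 2844 bp in L4. Upstream summits more than 2000 and up to 5000 bp away made up 7.01% of nuclear peaks in L1 and 6.32% in L4. The authors' assignment was by nearest location, and the next protein-coding gene on that side in RefSeq's order of genes (assembly TAIR10.1) is GRF8 (AT5G65430). GRF8 encodes a phosphopeptide-binding adaptor protein. RefSeq orders 1 further entry between the cyclin gene and GRF8, the RNA AT5G00715, of the class misc_RNA. GRF8 had no peak assigned in either line. Which of these genes the site acts on, if any, was not tested.

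A further peak of this gene lay inside the gene and was called in L1 alone. It ran from 26142094 to 26142465, with a pileup of 23 fragments but a fold of 3.19, which ranked 9555 of 9604. Its expected signal was 7.21 fragments, close to that of the upstream site, whose summit was 4728 bp away. The nearest L4 summit was 4730 bp away, at the upstream site itself. That a peak is listed in 1 line does not show that the lines differ, since no difference between them was tested.

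**Figure D2:**
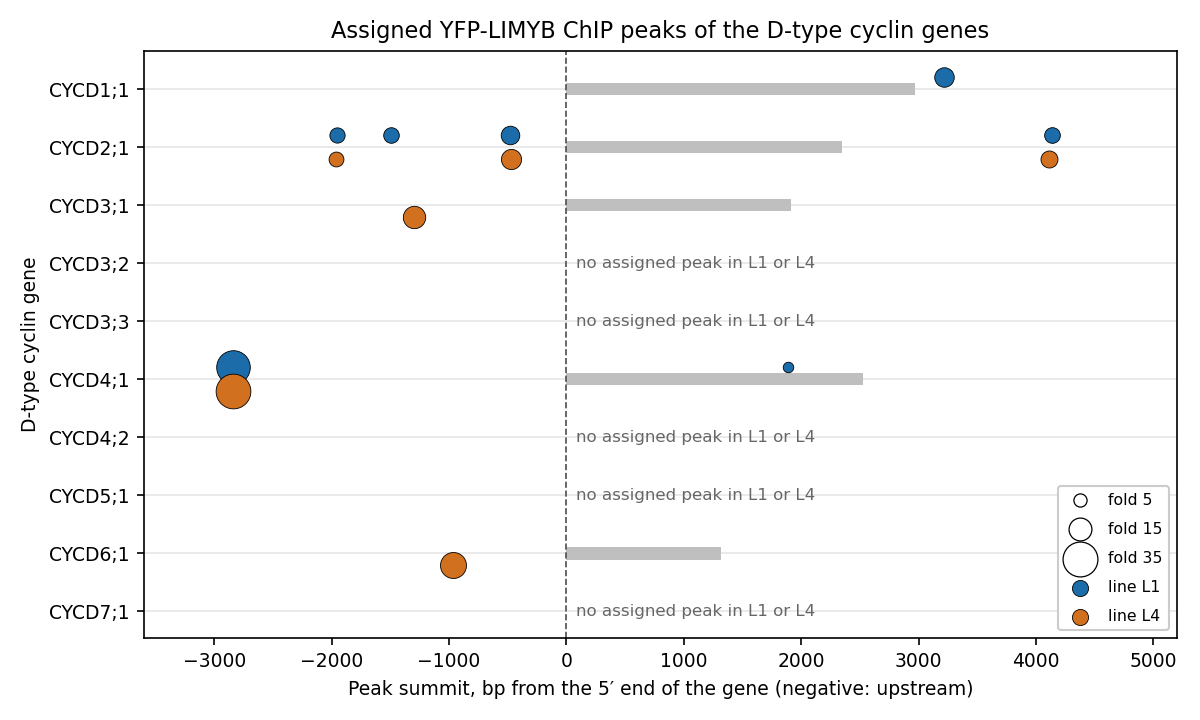
Summits of all 13 assigned peaks along the D-type cyclin genes (x axis, bp from the 5′ end, upstream negative, and y axis, gene), with the gene as a grey bar where the files place it, L1 in blue and L4 in orange, and point area in proportion to fold. The CYCD4;1 points at 2842 and 2844 bp upstream are the largest, CYCD2;1 has peaks on both sides of the gene, and 5 genes have none.

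CYCD2;1 (AT2G22490) had the most peaks of the family, 4 in L1 and 3 in L4, with folds from 6.36 to 11.69. It is a sucrose-responsive cyclin that acts in root growth. The peak closest to the gene lay at chromosome 2, 9556456 to 9556729 in L1, with a pileup of 31, a fold of 9.94 and a −log10 q of 18.27. In L4 it lay at 9556455 to 9556719, with a pileup of 29, a fold of 11.69 and a −log10 q of 19.04. The summits, 480 and 471 bp upstream of the 5′ end and 9 bp apart, were inside the promoter window used here, from 1000 bp upstream to 100 bp downstream. This was the single member with a promoter peak in both lines.

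Farther upstream both lines had a weaker peak, with summits at 1957 and 1962 bp. Its fold was 6.69 and 6.36, and its pileup was 19 and 14. Between this peak and the promoter peak, L1 had a further one, 1495 bp upstream, with a fold of 6.99 and a pileup of 20, and L4 had none that overlapped it. On the other side of the gene, a peak had folds of 7.08 and 8.33 and pileups of 15 and 13. Its nearer edge lay 1674 bp past the 3′ end of the gene in L1 and 1672 bp in L4. The summits of this downstream pair were 28 bp apart.

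Except for the promoter peak, these folds were below the list medians of 8.72 in L1 and 11.65 in L4. The expected signal at the upstream peaks of this gene ran from 2.84 to 3.12 fragments in L1 and was 2.20 and 2.48 in L4, above the medians of 1.98 and 1.36. Several peaks at 1 gene were uncommon: 149 of the 7047 genes with a peak in L1 (2.11%) had at least 4, and 250 of 6705 in L4 (3.73%) had at least 3. The next gene on the upstream side, UCP5, had no assigned peak, and PFK5 on the downstream side had 1 in L4 with a fold of 20.51.

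**Figure D3:**
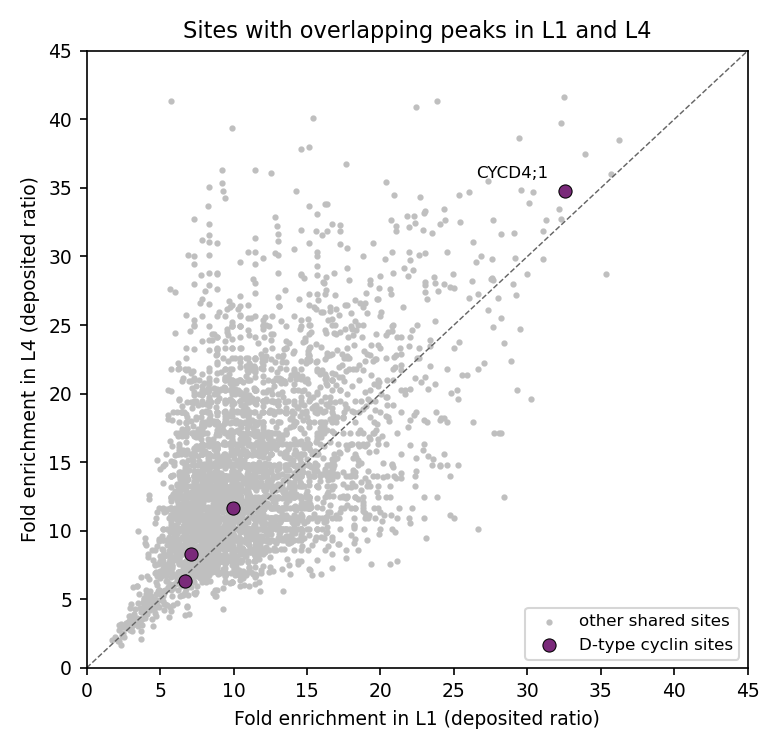
Fold enrichment in L1 (x axis) and L4 (y axis) of all 4324 pairs of overlapping nuclear peaks, each point 1 pair, with the 4 D-type cyclin pairs in purple and a dashed line where the folds are equal. The CYCD4;1 pair, at 32.54 and 34.8, is near the upper right corner, and the other 3 pairs, at 6.69 to 9.94 in L1, are in the lower left.

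These 4 sites, 1 at CYCD4;1 and 3 at CYCD2;1, were all that the lines shared in the family. They made up 4 of 7 peaks in L1 and 4 of 6 in L4. Over all nuclear peaks the shared proportion was 45.0% for L1 and 48.2% for L4. In the plot of folds at shared sites, the other 3 pairs were below the medians of all pairs, 9.92 in L1 and 12.45 in L4, apart from the promoter pair in L1 at 9.94.

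CYCD6;1 (AT4G03270) had the strongest peak found in 1 line only. It is the cyclin of the formative division that separates cortex from endodermis in the root, and the transcription factors SHR and SCR activate it. Its L4 peak ran from 1434482 to 1434759 on chromosome 4, with a pileup of 25, a fold of 19.46 and a −log10 q of 21.61. That fold ranked 972 of 8952. The summit was 970 bp upstream of the 5′ end, at the outer edge of the promoter window, and the nearest L1 summit was 8915 bp away. The next gene on this side is PETC, which encodes the Rieske protein of the cytochrome complex of photosynthesis, and PETC had no assigned peak in either line.

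CYCD3;1 (AT4G34160), a cytokinin-induced cyclin of shoot and leaf tissue, had a peak in L4 at chromosome 4, 16356202 to 16356424. Its pileup was 19, its fold 14.39 and its −log10 q 14.14, and its summit lay 1298 bp upstream of the 5′ end, outside the promoter window. The nearest L1 summit was 3604 bp away. The next gene on this side is AT4G34150, whose position was not used here, so whether the peak lies within it was not tested.

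CYCD1;1 (AT1G70210), a cyclin of early germination, had a peak in L1 at chromosome 1, 26442907 to 26443154, which began 78 bp past the 3′ end of the gene. It had a pileup of 21, a fold of 10.96 and a −log10 q of 13.22. No L4 summit was closer than 15685 bp. At the last 3 sites the expected signal was 1.28 (CYCD6;1), 1.32 (CYCD3;1) and 1.92 (CYCD1;1) fragments, below the median of the list that held each. The lowest value of any nuclear peak was 1.91 in L1 and 1.28 in L4. Within 1% of it lay 45.5% of nuclear peaks in L1 and 44.2% in L4, with those of CYCD1;1 and CYCD6;1 among them. A low expected signal was therefore common and not particular to these sites.

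The remaining 5 members had no assigned peak in either line. These were CYCD3;2 and CYCD3;3, which act with CYCD3;1 to prolong cell proliferation in leaves, CYCD4;2 and CYCD7;1 of the stomatal lineage, and CYCD5;1, linked to endoreduplication. At CYCD3;3, CYCD4;2 and CYCD7;1 the protein-coding genes next to them in RefSeq's order, on either side, also had none. Next to CYCD3;2, AT5G67265 had a peak with folds of 13.05 (L1) and 9.34 (L4), but on the side away from the cyclin gene. Next to CYCD5;1, ACA2, a calcium pump gene, had 1 peak in L1, with a fold of 16.71, and 2 in L4, with folds of 18.94 and 11.68, also on its far side.

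Both CYCD4 genes have a GRF gene as a neighbour, GRF8 beside CYCD4;1 and GRF6 beside CYCD4;2. CYCD4;1 was assigned the site with the highest −log10 q of both lines, whereas its paralogue and GRF6 had no assigned peak. Within the CYCD3 group, 1 of 3 genes had a peak, in L4 alone.

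The number of D-type cyclins with peaks was near that of genes in general. An assigned peak at any distance was found for 25.7% of the 27444 nuclear genes in L1, 24.4% in L4 and 14.3% in both, beside 3, 4 and 2 of the 10 cyclins. A promoter peak was found for 8.67% in L1, 8.04% in L4 and 3.83% in both, beside 1, 2 and 1 of 10. A peak over the gene body was found for 12.6% in L1, 12.5% in L4 and 5.97% in both, beside 1, 0 and 0 of 10. With 10 genes, 1 gene moves such a share by 10 points, and the counts were not tested, because the family was chosen with the lists known.

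Other cell cycle genes, with regulators of the D-type cyclin genes, were described in the same way, from 7 lists that held 85 genes. Together, 29 had an assigned peak in L1, 26 in L4 and 18 in both (34.1%, 30.6% and 21.2%). Promoter peaks were found at 7, 9 and 4 (8.24%, 10.6% and 4.71%), near the shares over all genes. Gene body peaks were found at 14, 17 and 11 (16.5%, 20.0% and 12.9%), above them. No test was run on these lists, and gene length, which bears on body peaks, was not compared.

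Among the kinases that the cyclins switch on, CDKA;1 had no assigned peak in either line. Of 13 kinases, activating kinases and docking proteins, 4 had a promoter peak in L1, 3 in L4 and 3 in both. Beside these stand 8.67%, 8.04% and 3.83% of all genes, and the difference was not tested. CKS1, a small docking subunit, had a fold of 10.19 (L1) and 15.42 (L4), with summits 518 and 110 bp upstream of the 5′ end, in peaks that did not overlap. CYCH;1, the cyclin of the CDK-activating kinase, had a fold of 8.49 with a summit 545 bp upstream in L1, and an overlapping L4 peak had 12.77 with a summit 499 bp upstream. Its strongest L4 peak, 14.58, spanned the 5′ end. CDKB2;1, a mitotic kinase, had overlapping peaks inside the gene with folds of 10.62 and 8.67.

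Of 13 kinase inhibitor genes, 7 had an assigned peak in L1, 4 in L4 and 3 in both. Over all genes these shares were 25.7%, 24.4% and 14.3%. A promoter peak was found at 0 of 13 in either line, beside 8.67% (L1) and 8.04% (L4) of all genes, a difference too small to read in a list of this size. KRP6, an inhibitor that acts in the germline, had overlapping peaks inside the gene with folds of 15.66 and 21.62 and summits at 927 and 922 bp from the 5′ end. KRP4 had overlapping peaks inside the gene with folds of 5.84 and 7.41.

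RBR1, the protein that these kinases inactivate, had no assigned peak. Of the 9 RBR1, E2F and DP genes, 0 had a promoter peak in either line, beside 8.67% (L1) and 8.04% (L4) of all genes. E2FA, an activator of replication genes, had overlapping peaks inside the gene with folds of 7.86 and 10.14. Of 16 replication genes downstream of E2F, 1 had a promoter peak in L1, 4 in L4 and 0 in both. Over all genes these shares were 8.67%, 8.04% and 3.83%. CDT1A, which licenses replication origins, had overlapping peaks inside the gene, with folds of 16.19 and 21.43. MCM4, a helicase subunit, had an L1 peak of 8.88 inside the gene and an L4 peak of 15.79 across the 5′ end, which did not overlap.

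The A-type and B-type cyclins had promoter peaks at about the share of all genes, 8.67% in L1 and 8.04% in L4. Over all genes the share in both lines was 3.83%. Of 10 A-type cyclins, 1 had one, CYCA2;1, in both lines: folds were 25.0 and 10.9, pileups were 51 and 14, and summits lay 850 and 854 bp upstream. CYCA3;1 had overlapping peaks inside the gene with folds of 5.81 and 5.79. Of 10 B-type cyclins, which drive mitosis, 0 had a promoter peak in L1, 1 in L4 and 0 in both.

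Of 14 regulators of D-type cyclin genes, 1 had a promoter peak in L1 and 0 in L4, beside 8.67% and 8.04% of all genes. Gene body peaks in both lines were found at 3 of the 14, beside 5.97% of all genes. ANT, which sustains CYCD3;1 expression in growing organs, had overlapping peaks inside the gene with pileups of 53 and 36 and folds of 15.41 and 19.78. FLP, a MYB factor that ends divisions in the stomatal lineage, had folds of 10.42 and 10.9 at overlapping peaks inside the gene. KIX9, an adaptor of a repressor of CYCD3 genes, had 6.31 and 10.12. SHR and SCR, the activators of CYCD6;1, had no assigned peak.

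**Figure D4:**
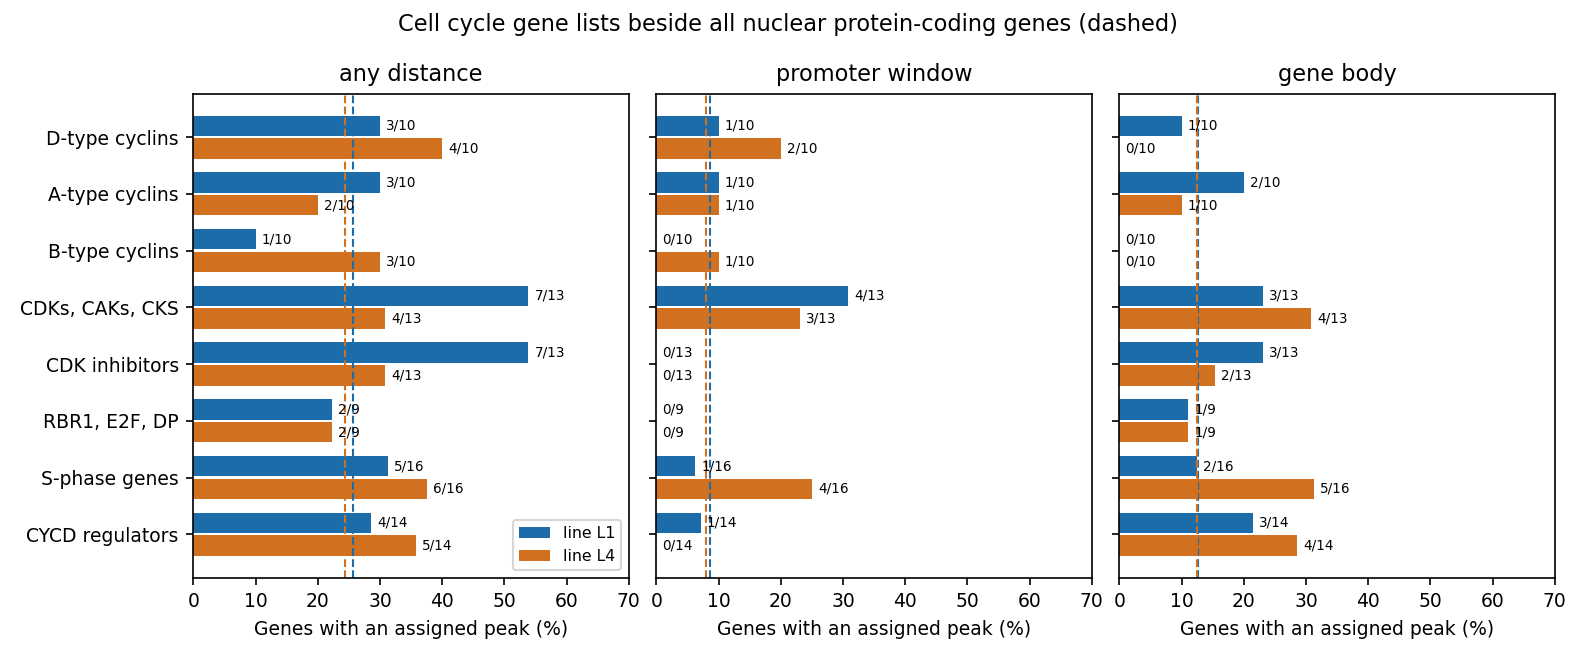
Share of genes with an assigned peak (x axis, percent) in each cell cycle list (y axis), at any distance, in the promoter window and over the gene body, with L1 in blue, L4 in orange, and genes counted over list size beside each bar. Dashed lines are the shares over all nuclear protein-coding genes, and the D-type cyclin bars stand for 1 and 2 of 10 genes in the promoter window.

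Sites with folds most like those of CYCD4;1 were sought among 1790 pairs of overlapping peaks that were upstream of the same gene in both lists. Likeness was the sum of the absolute log2 differences of fold in L1 and in L4, so each comparison rests on 2 values, and the lists share a peak caller and may share background. The closest was ASL9, a gene of the LBD transcription factor family, with a fold of 32.3 (L1) and 32.76 (L4) and a summed difference of 0.10. PMAT2, a malonyltransferase gene, had 30.11 and 33.87 (0.15), and AT5G67640 had 33.94 and 37.5 (0.17). Their L1 summits lay 1352, 3676 and 3876 bp upstream. Pileups at these 3 sites ranged 65 to 166 (L1) and 60 to 133 (L4), lower than the 220 and 213 at the cyclin site.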

How the data were processed

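The peak lists were made by the authors with MACS2, per the submitters' processing notes. Not given in the sources used here are the aligner, the build, the caller's version and settings, any control track and how replicates were pooled. Per the file headers, the deposited values were the pileup signal at the summit, the fold enrichment ratio, and −log10 p-values and q-values, with each peak assigned to the gene of a protein-coding transcript by nearest location. These were used within a list to describe, rank or filter peaks.

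Peaks were counted once by position. A promoter peak was one that reached into the 1000 bp before or 100 bp after the 5′ end, and shared peaks overlapped by at least 1 bp. The expected signal was pileup divided by fold, a computed value. Symbols and gene order came from RefSeq's table of TAIR10.1, in which 9825 of 10143 assigned identifiers were found; no coordinates were taken from it. Members, lists and rules were chosen with earlier results of these data known. In each of the other cell cycle lists, genes with a promoter or body peak in both lines were named, up to 3 by the lower fold. CDKA;1, RBR1, SHR and SCR, which had no peak, and the rank leaders quoted beside CYCD4;1 were named in addition, after their values were seen. No test was run, as each line has 1 list. Alternatives were stricter peak sets, other windows and other overlap rules. Sequences were not used here. Window and overlap rules were checked on simulated data. The software was matplotlib 3.10.9, pandas 2.3.3, scipy 1.17.1 and numpy 2.4.6 under Python 3.11.15.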

Additional observations from a re-analysis of the deposited data

How the results depend on the processing

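No paired analysis was possible because the peak lists hold no replicate columns, and for the same reason no replicate could be left out. Of 44 counts of D-type cyclin genes or peaks under the alternatives, 37 were at most 1.5 times away from the reported count. That tally includes a change from 2 to 3. It also includes the gene body counts of 0 in L4 and in both, which could not move under the rules run. Genes with an assigned peak stayed at 3 in L1, 4 in L4 and 2 in both under every alternative run. With a promoter of 500 bp upstream to 100 bp downstream, L4 had 1 promoter gene and not 2, because the CYCD6;1 peak fell outside. With 2000 bp upstream to 200 bp downstream it had 3, with CYCD3;1. With peaks of −log10 q of at least 10, or in the upper 50% by fold, the CYCD4;1 body peak of L1 was lost (0 genes under either). The shared cyclin peaks then fell from 4 to 2 in each line under either rule. Fewer cyclin peaks were left to share: 3 of 7 in L1 and 4 of 6 in L4 were above the list median of fold. The shared proportion of all nuclear peaks under these rules was not computed. The 85 genes of the other cell cycle lists were checked with these stricter peak sets and with an overlap rule. All were chosen after seeing the data, and other windows were not run. With −log10 q of at least 10, the genes in both lines fell from 18 to 6 (assigned), from 4 to 1 (promoter) and from 11 to 3 (body). In the upper 50% by fold they were 7, 1 and 4, and where an L1 and an L4 peak of the gene had to overlap they were 15, 3 and 9. The stricter peak sets thin the lists for all genes: the median −log10 q of nuclear peaks was 10.27 in L1 and 10.99 in L4. Shares over all nuclear genes under these rules were not computed, so the falls cannot be read as particular to cell cycle genes. Read depth and replicate error are unknown, which limits any statement that a peak is missing from a line.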

Other observations

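Outside the naming rule, and singled out after its values were seen, the mitotic cyclin gene CYCB1;4 had the strongest site of the other cell cycle lists. It lay downstream of the gene, with summits 2699 bp from the 5′ end in L1 and 2675 bp in L4. The fold was 28.17 in L1 and 31.63 in L4, and the pileup was 80 and 62 fragments. Like the CYCD4;1 site, it was neither in the promoter window nor over the gene body, so counts in those windows leave it out. Among 4324 pairs of overlapping nuclear peaks, the 5 with the highest lower −log10 q were assigned to CYCD4;1, AT5G03880, ASL9, CSLD6 and AT2G37120. Their lower −log10 q values were 233.54, 151.89, 143.37, 125.87 and 124.31.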
